A study of Mus musculus with 6 samples.

Results

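Collagen genes were followed across 6 RNA-seq libraries of the embryonic mouse retina. The set was every gene whose symbol has the form Col, number, a, number and that had at least 10 reads in 1 or more libraries. It held 42 of the 23441 genes listed. A further 2 collagen symbols, Col6a5 and Col6a6, never reached 10 reads and were left out. The members closest to the limit were Col10a1 and Col28a1, each with 11 reads in its highest library, and Col6a4 with 14. By the structures their proteins form, 11 members are fibrillar, 9 belong to basement membranes, 9 are fibril-associated, 5 form beaded filaments, 3 form networks, 4 span the membrane and 1, Col26a1, was placed in no class.

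The libraries came from retinae at embryonic day 14.5, with 3 control libraries (Ronin flox/flox) and 3 conditional knockout (CKO) libraries (Ronin flox/flox with a Cre-GFP transgene, +/tg). Ronin is the zinc finger protein encoded by Thap11, and the comparison asks which retinal transcripts differ when it is lost. All mice carried the floxed alleles on a mixed strain background (C57/B6, FVB, SJL/B6 and 129/Sv). By the labels, the knockout is specific to retinal progenitor cells. The controls carried no Cre, so loss of Ronin and presence of Cre-GFP cannot be told apart.

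Collagens are secreted proteins made of 3 chains wound into a triple helix, and each chain has its own gene. Fibrillar collagens assemble into fibres of connective tissue, cartilage and the vitreous, whereas type IV collagen forms the sheet-like scaffold of basement membranes such as the inner limiting membrane of the retina, the lens capsule and the sheath of blood vessels. Fibril-associated collagens coat fibres, and in the eye types II, V/XI and IX together make up the fibrils of the vitreous.

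Counted reads per library ranged from 23721052 to 28504391, and 17108 to 17477 genes had a read. Levels are given as CPM, counts per 1000000 reads of the library size scaled by TMM. Thap11 fell from 1739, 1880 and 1880 reads in controls 1, 2 and 3 to 323, 292 and 156 reads in CKO 1, 2 and 3, a log2 fold change of -2.96 ± 0.24 (SE, n = 3 per group, quasi-likelihood test of edgeR, with p adjusted across the tested genes by Benjamini-Hochberg, adjusted p = 0.00425). Nothing in the labels tells whether a replicate is a separate animal, so p-values here measure the spread between these libraries, some of which may be technical. Control 2 stood apart from the other libraries, and CKO 1 and CKO 3 held many lens transcripts. Genotype differences that control 2 moved are also given without it.

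Type IV collagen genes lie in head-to-head pairs, whose members are compared with each other further on. Of those pairs 2 are shown, and no window was found for Col4a3 of the remaining pair. The windows hold 300 bases, from 250 before the start site to 50 after it, written 5′ to 3′ on the strand of each gene. They are from RefSeq on build GRCm38.p6, whereas the reads were counted on mm9. Col4a1 (chr8:11312777-11313076, minus strand) and Col4a2 (chr8:11312555-11312854, plus strand) have start sites 21 bases apart. Each start site lies inside the other gene, so the genes overlap there on these coordinates. Capitals mark the 78 bases that both windows hold, read on opposite strands.
Col4a1: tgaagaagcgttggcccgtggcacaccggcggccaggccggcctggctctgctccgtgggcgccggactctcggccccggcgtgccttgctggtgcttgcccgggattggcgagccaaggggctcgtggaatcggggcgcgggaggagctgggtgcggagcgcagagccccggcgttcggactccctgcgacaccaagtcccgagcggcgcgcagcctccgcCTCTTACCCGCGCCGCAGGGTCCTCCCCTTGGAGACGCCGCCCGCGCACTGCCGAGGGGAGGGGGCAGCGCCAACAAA
Col4a2: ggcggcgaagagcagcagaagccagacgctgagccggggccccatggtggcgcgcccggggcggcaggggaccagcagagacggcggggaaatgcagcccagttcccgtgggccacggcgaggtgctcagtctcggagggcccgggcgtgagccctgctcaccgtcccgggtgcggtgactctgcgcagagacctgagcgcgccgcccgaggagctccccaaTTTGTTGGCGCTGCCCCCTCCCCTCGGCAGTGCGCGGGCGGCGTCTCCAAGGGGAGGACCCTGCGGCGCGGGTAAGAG

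Col4a5 (chrX:141475169-141475468, plus strand) and Col4a6 (chrX:141474027-141474326, minus strand) have start sites 1343 bases apart, and their windows do not overlap. Capitals mark the match to the GC box, GGGCGG or CCGCCC on the other strand.
Col4a5: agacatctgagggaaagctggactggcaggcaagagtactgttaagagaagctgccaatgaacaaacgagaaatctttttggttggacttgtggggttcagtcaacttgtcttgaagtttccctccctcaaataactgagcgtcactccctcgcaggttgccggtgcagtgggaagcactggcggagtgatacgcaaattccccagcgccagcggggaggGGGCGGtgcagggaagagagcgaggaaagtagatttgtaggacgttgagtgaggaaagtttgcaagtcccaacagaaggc
Col4a6: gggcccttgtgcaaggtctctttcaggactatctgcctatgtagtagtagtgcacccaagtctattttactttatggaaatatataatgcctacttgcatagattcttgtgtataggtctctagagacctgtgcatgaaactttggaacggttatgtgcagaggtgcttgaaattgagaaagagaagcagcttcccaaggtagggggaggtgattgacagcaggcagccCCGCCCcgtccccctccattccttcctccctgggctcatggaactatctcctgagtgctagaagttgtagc

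The GC content of these windows was 74.0% for Col4a1, 73.7% for Col4a2, 52.7% for Col4a5 and 48.3% for Col4a6. The GC box occurred 1, 3, 1 and 1 times in that order, over both strands. That of Col4a1 lies in the shared stretch and is the same site as 1 of the 3 of Col4a2. A CCAAT box (CCAAT or ATTGG) occurred once in each window other than that of Col4a6, and the letters TATAAA or TTTATA were in none of these 4 windows. Windows were found for 33 of the 42 collagens, 36 windows in all. Of these, 21 (58.3%) held a GC box, against 35.7% of all 32851 promoter windows. A CCAAT box was in 13 (36.1%), against 37.4%, and a TATA box in 5 (13.9%), against 13.6%.

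The level of each collagen was first set against its transcript length, since longer transcripts yield more reads. Per kilobase of the longest coding transcript in a later annotation, and averaged over the 6 libraries, Col9a1 was the most abundant collagen at 101 CPM per kb. It encodes a chain of type IX collagen, which decorates type II fibrils. Col2a1, the chain of type II collagen, followed at 66.7 CPM per kb, then Col9a2 at 47.6, Col4a1 at 43.4, Col18a1 at 40.6 and Col4a2 at 35.8 CPM per kb. Col9a1 exceeded Col2a1 in every library. The place of Col9a2 rested on control 2, where it stood at 123.7 CPM per kb against 28.9 to 33.7 in the other libraries. Over the 5 libraries without control 2, Col4a1 followed Col2a1 at 36.3 CPM per kb, then Col18a1 at 34.7, Col9a2 at 32.4 and Col4a2 at 28.5. Neighbours in this order changed places between libraries: in control 1 the highest of these 4 was Col18a1 at 41.9 CPM per kb, and in CKO 1 it was Col4a1 at 48.5 CPM per kb. The chains of type I and type III collagen, which fill skin, bone and tendon, were low: Col1a2 stood at 5.97, Col1a1 at 0.858 and Col3a1 at 0.651 CPM per kb.

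Markers of tissues around the retina were read beside these levels. The muscle regulators Myod1 and Myf5 had 2 reads and 1 read in all 6 libraries together. The cartilage genes Acan and Matn1 had 4 reads each, and Twist1, a mesenchymal transcription factor gene, had 8. Ccnd1, a cyclin gene of retinal progenitors, was high in every library, at 3371 to 4305 CPM. Other members of these lists were read at low levels: Mylpf, a muscle myosin light chain gene, at 2.78 to 4.06 CPM, Ttn at 1.72 to 4.71 CPM, and the cartilage genes Lect1 at 0.882 to 3.14 CPM and Hapln1 at 0.411 to 2.12 CPM. Of the mesenchyme list, Fbn1 stood at 28.2 to 52.6 CPM, Pdgfra at 3.97 to 13.9 CPM and Prrx1 at 0.567 to 2.16 CPM. Col2a1, Col9a1, Col4a1 and Col18a1 were read at 174 CPM or more in each library. Which cells the collagen reads came from was not tested.

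Most collagens had their highest level in the same library, control 2. Of the 37 members that passed the filter on low counts, 31 were highest there, against 34.9% of all 14609 genes tested. Control 2 exceeded every other library by at least 1.5 times for 25 members (background 9.07%) and by at least 2 times for 17 (background 2.16%). Across the 37 members the median ratio of control 2 to the mean of controls 1 and 3 was 2.26, against 0.999 over all genes. The ratio was 2.53 for fibrillar, 2.26 for basement membrane, 3.18 for fibril-associated and 2.55 for beaded filament collagens, and 1.12 for those that span the membrane.

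**Figure D1:**
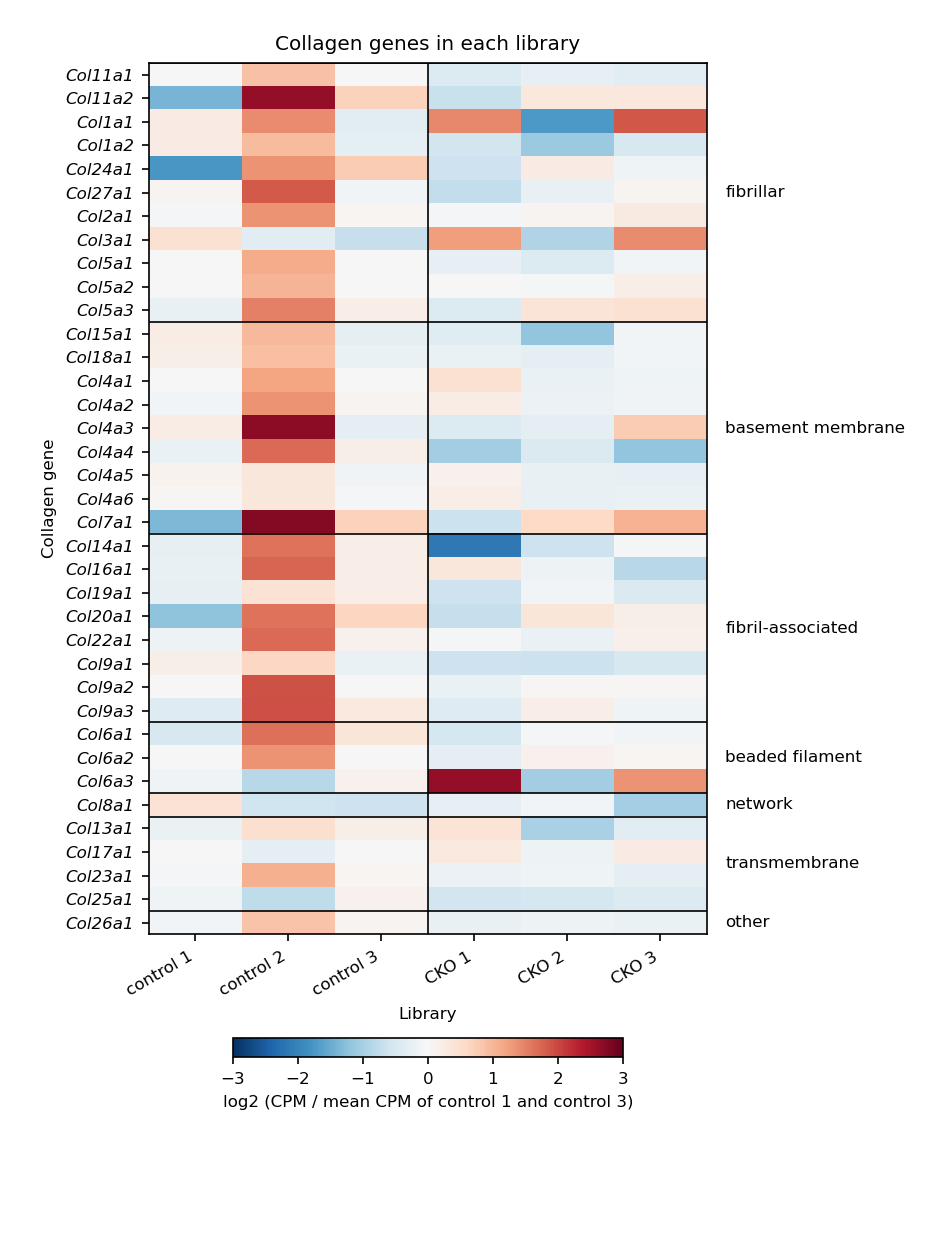
Each row is 1 of the 37 tested collagens and each column 1 library; colour gives log2 of the CPM over the mean CPM of controls 1 and 3, from blue (lower) to red (higher), with classes set apart by lines. Control 2 is the highest library for 31 of the 37, and CKO 1 and CKO 3 lie above the other 4 libraries for Col1a1, Col3a1, Col6a3 and Col17a1.

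The 6 exceptions were Col1a1, Col3a1, Col6a3 and Col17a1, highest in CKO 1 or CKO 3, Col8a1, highest in control 1, and Col25a1, highest in control 3. The collagen genes as a whole took 0.210%, 0.407% and 0.202% of the reads in controls 1, 2 and 3, and 0.195%, 0.181% and 0.197% in CKO 1, 2 and 3. The median SD of log2 CPM over the tested collagens was 0.68 among the controls, 0.25 among controls 1 and 3 alone, and 0.29 among the CKO libraries. Over all genes these medians were 0.33, 0.19 and 0.10.

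Among the fibrillar collagens Col2a1 was the most abundant. It stood at 250.4, 669 and 274 CPM in controls 1, 2 and 3 and at 251, 279 and 318 CPM in CKO 1, 2 and 3. The CKO libraries lay inside the range of the controls, and only control 2 was far from the rest. The group means were 398 ± 235 and 283 ± 33.3 CPM (SD, n = 3 per group), with a log2 fold change of -0.49 ± 0.36 (SE, edgeR adjusted p = 0.936), which became 0.12 without control 2.

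Types V and XI collagen are minor fibrillar collagens that join type I and type II fibres and set their diameter. Col5a1 stood at 79.7, 172 and 78.4 CPM in the control libraries against 66.4, 59.2 and 74.7 CPM in the CKO, so that all CKO libraries lay under all controls. Col5a2 did not separate the groups, with 74.4, 152 and 74.5 CPM in the control libraries and 75.5, 71.4 and 85.1 CPM in the CKO. Col11a1 was at 36.4, 67.7 and 37.4 CPM in the control libraries against 27.5, 31.1 and 29.4 CPM in the CKO, again without overlap. Neither Col5a1 (log2 fold change -0.72 ± 0.31, edgeR adjusted p = 0.752) nor Col11a1 (-0.68 ± 0.25, adjusted p = 0.618) passed the test, and without control 2 the values were -0.23 and -0.32.

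Col11a2, whose chain joins that of Col11a1 in type XI collagen, varied far more than its partner. Its level was 6.05, 98.5 and 25.6 CPM in the control libraries and 10.01, 19.6 and 19.8 CPM in the CKO. The lowest and the highest of the 6 libraries were both controls. Col24a1, a fibrillar collagen of developing bone and cornea, had a like pattern of 1.81, 15.4 and 10.4 CPM in the control libraries and 3.98, 7.28 and 5.56 CPM in the CKO. Col27a1, a cartilage collagen, was at 3.81, 12.9 and 3.43 CPM in the control libraries against 2.18, 3.10 and 3.80 CPM in the CKO. In both genes the groups overlapped. Col5a3 was lower still, between 0.450 and 1.70 CPM.

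The genes of type I and type III collagen did not follow each other. Col1a2, the alpha 2 chain of type I, stood at 39.2, 64.0 and 26.8 CPM in the control libraries against 22.7, 15.4 and 23.5 CPM in the CKO, so that every CKO library was under every control. Its means of 43.3 ± 18.9 and 20.5 ± 4.48 CPM (SD, n = 3 per group) differed by -1.08 ± 0.32 on the log2 scale (SE). In edgeR the unadjusted p was 0.011 and the adjusted p = 0.4, and the value was -0.67 without control 2. Col1a1, the alpha 1 chain of the same protein, was at 3.22, 7.15 and 2.17 CPM in the control libraries against 7.37, 0.821 and 9.77 CPM in the CKO. Col3a1, the chain of type III, was at 3.57, 2.05 and 1.60 CPM in the control libraries against 6.16, 1.38 and 6.95 CPM in the CKO. Both were high in CKO 1 and CKO 3 and lowest in CKO 2, and neither separated the groups (log2 fold change 0.52 ± 0.77, edgeR adjusted p = 0.954 for Col1a1, which was 1.16 without control 2, and 1.002 ± 0.57, adjusted p = 0.906 for Col3a1).

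**Figure D2:**
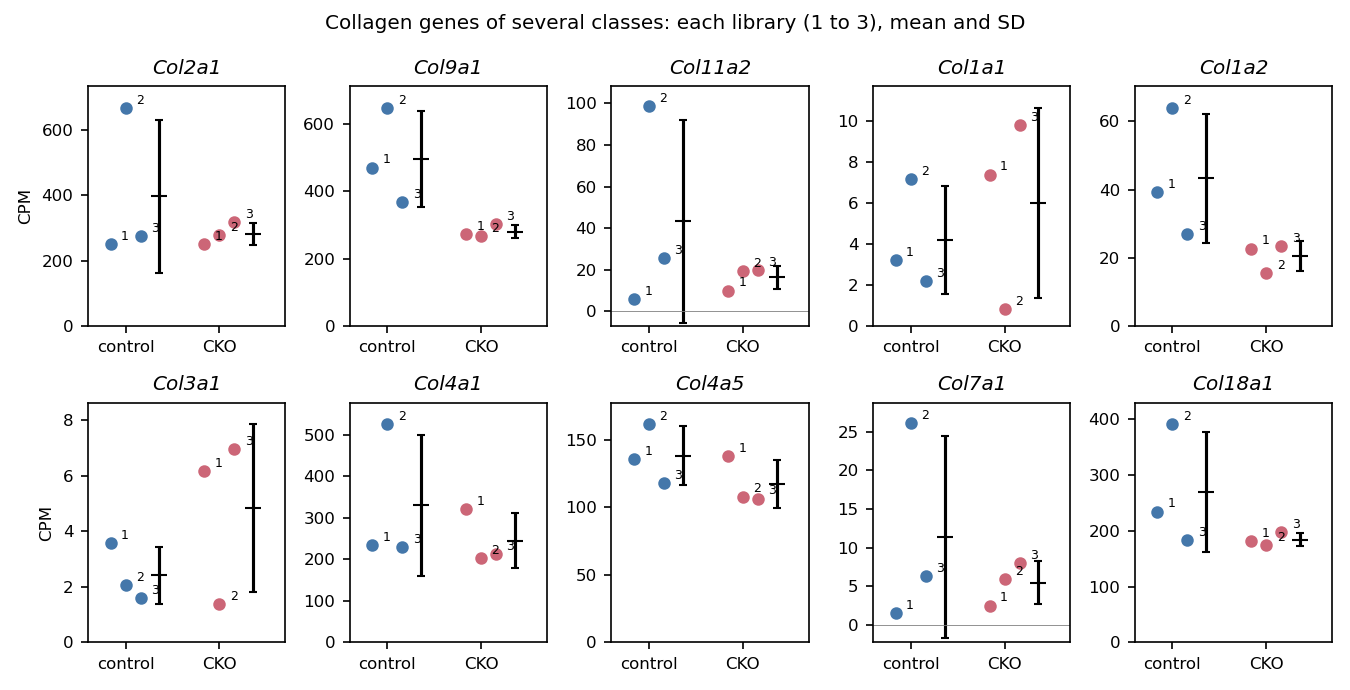
CPM of 10 collagens in each library (points, numbered by replicate; blue, control; red, CKO), with a horizontal tick at the group mean and a bar of 1 SD on each side (n = 3 per group). Control 2 is the highest point for Col2a1, Col9a1, Col11a2, Col1a2, Col4a1, Col4a5, Col7a1 and Col18a1, while CKO 3 is the highest for Col1a1 (9.77 CPM) and Col3a1 (6.95 CPM); the grey line marks 0 where a bar reaches under it.

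The basement membrane collagens all had negative log2 fold changes, and none passed the test. Col4a1 and Col4a2 encode the chains of the ubiquitous type IV network. Col4a1 stood at 234, 525 and 229.8 CPM in the control libraries against 321, 202 and 213 CPM in the CKO. Col4a2 stood at 175, 467 and 194 CPM in the control libraries against 215, 162 and 172 CPM in the CKO. Control 2 was highest and CKO 1 second in both genes, and the other 4 libraries lay close together. The log2 fold changes were -0.43 ± 0.35 for Col4a1 (edgeR adjusted p = 0.94) and -0.61 ± 0.37 for Col4a2 (adjusted p = 0.916), and without control 2 they were 0.09 and 0.00084.

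Col4a5 and Col4a6, which encode the chains of a type IV network with a narrower distribution, varied least. Col4a5 was at 135, 161 and 118 CPM in the control libraries against 138, 108 and 106 CPM in the CKO. Col4a6 was at 52.9, 65.1 and 50.4 CPM in the control libraries against 59.0, 44.5 and 45.1 CPM in the CKO. Control 2 exceeded the mean of controls 1 and 3 by 1.28 times for Col4a5 and 1.26 times for Col4a6, where the median over the class was 2.26 times. Col4a3 and Col4a4, whose chains combine with that of Col4a5 in the kidney and the mature eye, were rare. Col4a3 had 15, 74 and 11 reads in the controls and 11, 11 and 21 in the CKO. Col4a4 had 27, 91 and 36 reads in the controls and 17, 24 and 13 in the CKO, so that the groups did not overlap (log2 fold change -1.65 ± 0.55, edgeR adjusted p = 0.505, and -0.84 without control 2).

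Col18a1, a collagen with heparan sulphate chains that lies in the inner limiting membrane, stood at 235, 391 and 184 CPM in the control libraries against 181, 174 and 197 CPM in the CKO. Its log2 fold change was -0.55 ± 0.26 (edgeR adjusted p = 0.835), and -0.17 without control 2. Col15a1, its closest relative, was at 9.07, 15.1 and 6.43 CPM in the control libraries against 5.99, 3.43 and 7.28 CPM in the CKO. In both genes CKO 3 lay above control 3, so the groups overlapped. Col7a1, the anchoring fibril collagen of skin, ranged most widely, with 1.53, 26.2 and 6.28 CPM in the control libraries and 2.49, 5.90 and 8.02 CPM in the CKO. Control 1 held its lowest value and control 2 its highest.

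Summed over their members, basement membrane collagens were at 844, 1658 and 790.4 CPM in the control libraries and 923, 702 and 750.5 CPM in the CKO. Fibrillar collagens summed to 499, 1262 and 535 CPM in the control libraries and 474, 489 and 577 CPM in the CKO. The sum of fibrillar over that of basement membrane collagens was 0.592, 0.761 and 0.677 in the controls and 0.513, 0.697 and 0.769 in the CKO. Control 2 was thus highest in both sums, while its ratio between the classes lay inside the range of the other libraries.

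Type IX collagen gave the most abundant of the fibril-associated transcripts. Col9a1 stood at 471, 649 and 368 CPM in the control libraries against 272, 268 and 302 CPM in the CKO. All 3 CKO libraries lay under all 3 controls, and they differed little among themselves. The means were 496 ± 142 and 281 ± 18.9 CPM (SD, n = 3 in each group), and the log2 fold change was -0.82 ± 0.21 (SE). By edgeR's quasi-likelihood test the unadjusted p was 0.00481 and the adjusted p = 0.246, so Col9a1 was not called. DESeq2's Wald test called it lower (log2 fold change -0.80, adjusted p = 0.031). Without control 2 the edgeR value was -0.57 (adjusted p = 0.136), in the same direction.

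The partner chains of type IX collagen did not separate the groups. Col9a2 was at 96.5, 362 and 96.6 CPM in the control libraries against 84.4, 98.4 and 98.2 CPM in the CKO. Col9a3 was at 10.8, 54.4 and 17.4 CPM in the control libraries against 10.8, 16.1 and 12.9 CPM in the CKO. Control 2 alone was high in both, and without it the log2 fold changes went from -0.98 and -1.05 to -0.03 and -0.08. Of the other fibril-associated members, Col16a1, Col19a1, Col20a1 and Col22a1 had log2 fold changes of -0.51 to -0.96, which without control 2 were -0.12, -0.35, 0.02 and -0.01 in that order. Col14a1 had 3 to 33 reads per library. Col12a1, found on type I fibres, had 18, 9 and 11 reads in the controls and 8, 4 and 4 in the CKO. It did not pass the filter on low counts with all libraries. In the fit without control 2 its log2 fold change was -1.465 (edgeR adjusted p = 0.353).

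Type VI collagen forms beaded filaments in the matrix around cells from chains of Col6a1, Col6a2 and Col6a3. Col6a1 stood at 25.2, 110.4 and 44.8 CPM in the control libraries against 24.3, 34.1 and 33.1 CPM in the CKO. Col6a2 was at 11.5, 29.2 and 11.4 CPM in the control libraries against 9.49, 12.5 and 11.9 CPM in the CKO. Both had their highest level in control 2, and their groups overlapped. Col6a3 differed from them: it had 9, 5 and 11 reads in the controls and 69, 5 and 24 reads in the CKO. Its reads were most numerous in CKO 1 and CKO 3, and CKO 2 shared the lowest count with control 2 (log2 fold change 1.83 ± 0.80, edgeR adjusted p = 0.775). Col6a4 was among the 5 members that did not pass the filter on low counts.

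The network and transmembrane collagens were few and mostly low. Col8a1, of the sheet under the corneal endothelium and of vessel walls, had 12 to 34 reads per library, and Col8a2 had 5 to 19. Col23a1, a transmembrane collagen, was the only abundant one, at 105, 229 and 112 CPM in the control libraries against 95.3, 98.6 and 89.2 CPM in the CKO. The CKO libraries lay just under controls 1 and 3, without overlap (log2 fold change -0.65 ± 0.29, edgeR adjusted p = 0.784, and -0.19 without control 2). Col25a1, found in neurons, ran the other way in control 2, with 5.38, 3.49 and 6.43 CPM in the control libraries and 3.98, 4.11 and 4.46 CPM in the CKO. Col13a1 (0.411 to 1.13 CPM) and Col17a1 (2.22 to 3.25 CPM) were low in all libraries. Col26a1 was at 10.2, 19.8 and 11.5 CPM in the control libraries against 9.24, 9.82 and 9.45 CPM in the CKO.

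Between the genotypes, edgeR's quasi-likelihood test called 0 of the 37 tested collagens higher and 0 lower at an adjusted p under 0.05. Over all 14609 genes tested it called 0.192% higher and 0.705% lower, 0.897% in all. At an unadjusted p under 0.05, 5 collagens were lower (Col9a1, Col1a2, Col4a4, Col11a1 and Col5a1) and 0 higher, where the background was 4.36% lower and 2.22% higher. That number, in either direction, ranged from 3 of 38 without CKO 1 to 19 of 37 without control 1. It was 6 of 39 without control 2 and 10 of 38 without control 3. The share of all genes at that limit was not computed for these smaller fits, so these counts have no background to be read against. DESeq2's Wald test called 1 collagen, Col9a1, lower, with a background of 1.43% lower and 2.23% in either direction. All CKO libraries lay under all controls for 7 of the 37 tested collagens (the same 5, Col23a1 and Col26a1) against a background of 6.91%. They lay above all controls for 0, against 5.74%. Col12a1 and Col28a1, which did not pass the filter, were also lower in every CKO library than in every control, at 18 reads or fewer. In bulk tissue, fewer cells that make a collagen and less RNA per cell cannot be told apart.

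Log2 fold changes were negative for 33 of the 37 collagens, with a median of -0.65, against 55.03% of all genes tested with a median of -0.03. The medians were -0.68 for fibrillar, -0.61 for basement membrane, -0.89 for fibril-associated, -0.62 for beaded filament and -0.32 for transmembrane collagens. Without control 2, 24 of the same 37 were negative, where 7511 of the 14609 genes were. The median of these 37 was then -0.10, with -0.01 over all genes. The class medians were then 0.07 for fibrillar, -0.05 for basement membrane, -0.10 for fibril-associated, -0.0075 for beaded filament and -0.18 for transmembrane collagens. The excess of negative values therefore rested in large part on control 2. Without it edgeR called 0.487% of 14776 genes higher and 0.995% lower, none of them a collagen.

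**Figure D3:**
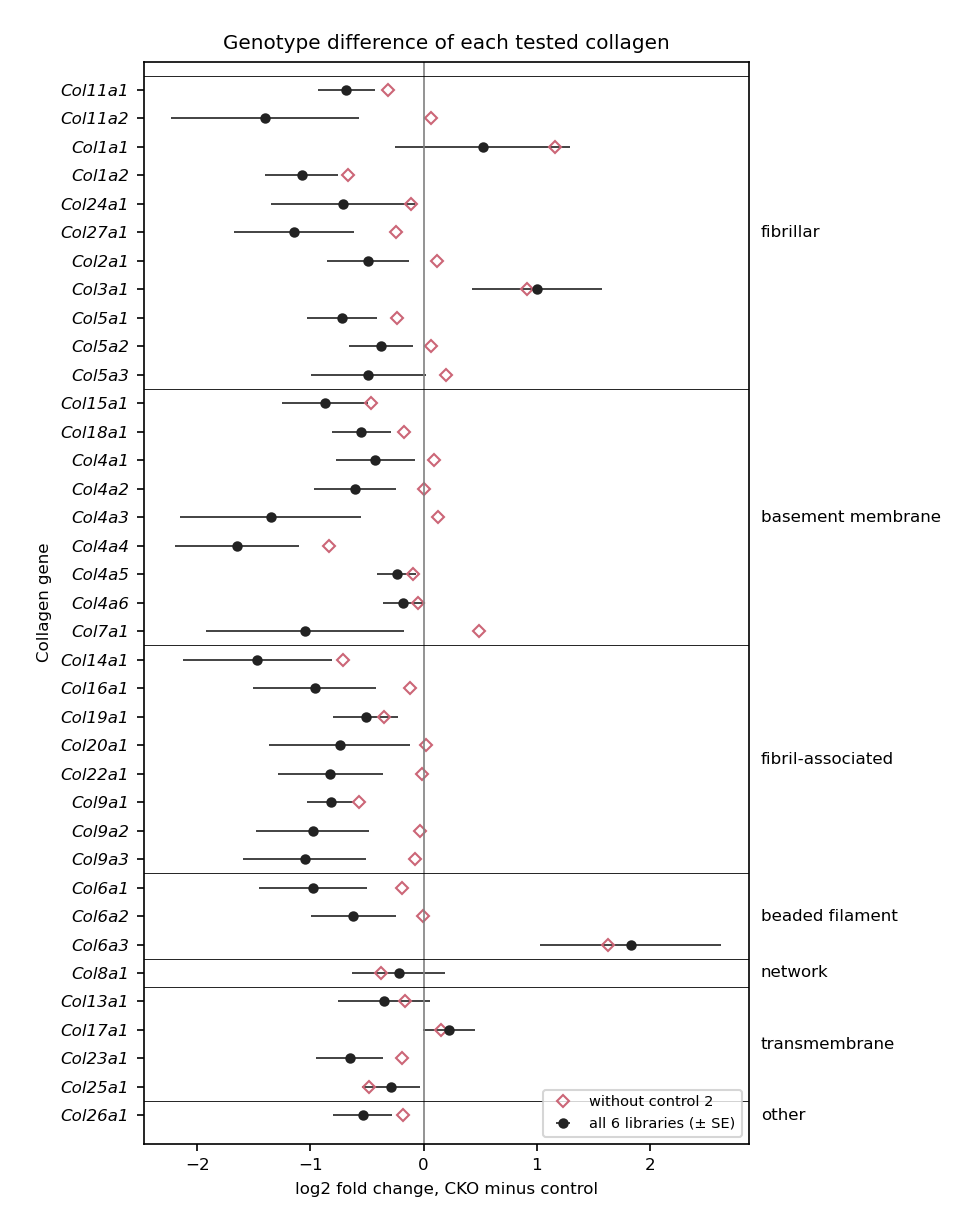
Log2 fold change (CKO minus control) of the 37 tested collagens by class; filled points with SE bars are from all 6 libraries and open diamonds from the fit without control 2. With all libraries 33 points lie under 0, and 24 do so without control 2, where the median is -0.10.

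Ratios between chains within a library do not depend on its depth or scaling. The number of reads of Col4a6 per read of Col4a5 was 0.391, 0.403 and 0.428 in the controls and 0.429, 0.412 and 0.424 in the CKO, so the highest library was 1.10 times the lowest. For the adjacent pair Col4a2 and Col4a1 it was 0.746, 0.890 and 0.846 in the controls and 0.671, 0.802 and 0.810 in the CKO, with 1.33 times between the extremes. These were the most stable of the 12 chain ratios computed, and in both pairs the groups overlapped. The remaining type IV pair varied more. Reads of Col4a4 per read of Col4a3 ranged 5.29-fold, from 0.619 in CKO 3 to 3.27 in control 3. The groups overlapped there too, and both genes were rare, with 11 to 91 reads per library.

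The other pairs of chains ranged more widely over the 6 libraries, Col5a1 per Col5a2 by only 1.36 times between the extremes. Reads of Col1a1 per read of Col1a2 were 0.0822, 0.112 and 0.0809 in the controls and 0.325, 0.0534 and 0.416 in the CKO, so the highest library was 7.78 times the lowest. Type I collagen is usually built from more alpha 1 than alpha 2 chains, whereas per length of transcript Col1a1 stood at 0.0482 to 0.375 of the level of Col1a2. Reads of Col6a3 per read of Col6a2 ranged 33.7-fold, from 0.00747 in control 2 to 0.252 in CKO 1. Col11a2 per Col11a1 ranged 8.75-fold, from 0.166 in control 1 to 1.46 in control 2.

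In 2 of the 12 ratios the groups did not overlap. Col5a1 per Col5a2, chains that join in type V collagen, was 1.07, 1.13 and 1.05 in the controls and 0.879, 0.828 and 0.877 in the CKO. Its means were 1.085 ± 0.0408 and 0.861 ± 0.0284 (SD, n = 3 per group). Col2a1 per Col1a2 was 6.39, 10.4 and 10.2 in the controls and 11.1, 18.2 and 13.5 in the CKO. Each had an exact two-sided permutation p = 0.1, the smallest that 3 libraries against 3 allow, and an adjusted p = 0.6 over the 12 ratios, which were chosen with the counts in view.

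Col1a1, Col3a1 and Col6a3, singled out after their values were seen, were summed. The sum was 7.15, 9.42 and 4.19 CPM in the control libraries and 15.9, 2.39 and 17.7 CPM in the CKO. CKO 1 and CKO 3 were both above the other 4 libraries for these genes and Col17a1, 4 of 37 collagens, against a background of 3.75%. The same libraries held the most lens transcripts: lens markers summed to 21.7, 13.1 and 14.0 CPM in the control libraries and 11209, 66.8 and 837 CPM in CKO 1, 2 and 3. The order differed, since the lens sum was far higher in CKO 1 than in CKO 3 while the collagen sum was slightly higher in CKO 3. All 17 tested lens markers had positive log2 fold changes and 0 were called by edgeR. CKO 1 also stood apart for Nid1, a basement membrane linker protein gene, at 64.4 CPM against 7.15 to 14.3 CPM elsewhere. The part of lens tissue in these collagen values was not tested.

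Genes that make, bind and degrade collagen were followed as lists. None of 35 tested genes of collagen synthesis and processing was called, and their median log2 fold change was -0.11 (-0.09 without control 2), with 22 negative. P4hb, a subunit of the enzyme that hydroxylates collagen prolines, stood at 514, 449 and 353 CPM in the control libraries against 399, 369 and 381 CPM in the CKO. Serpinh1, the collagen chaperone HSP47, stood at 377, 336 and 245 CPM in the control libraries against 268, 230.1 and 259 CPM in the CKO. Both were highest in control 1 and not in control 2, and the summed level of the 39 genes was 2171, 2107 and 1893 CPM in the control libraries and 1870, 1805 and 1871 CPM in the CKO. Control 2, with over 2 times the summed collagen level of any other library, was thus inside the range of the other controls for this sum. By gene it was the highest library for 14 of the 35 (background 34.9%) and the lowest for 9 (background 34.0%). Leprel2, for one, stood at 29.5, 87.9 and 52.3 CPM in controls 1, 2 and 3.

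Of 10 tested collagen receptor genes 0 were called and 8 had negative log2 fold changes (median -0.13, and -0.09 without control 2). Ddr1, a receptor tyrosine kinase activated by collagen, stood at 527, 697 and 553 CPM in the control libraries against 548, 536 and 548 CPM in the CKO. Itgb1, the shared beta chain of the collagen-binding integrins, was at 408, 316 and 306 CPM in the control libraries against 331, 305 and 299 CPM in the CKO. Gp6, the platelet collagen receptor gene, had 0 reads in all libraries, which allows up to 0.0194 CPM over the 6 libraries. Small leucine-rich proteoglycans, which bind collagen fibrils, summed to between 14.9 and 22.7 CPM, with 0 of 6 tested members called. The most abundant, Optc of the vitreous, was at 10.8, 4.97 and 7.005 CPM in the control libraries against 4.40, 6.31 and 5.60 CPM in the CKO.

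Of 11 tested genes of collagen breakdown 0 were called, with 5 negative and a median of 0.04, which was -0.07 without control 2. Mmp14, a membrane-bound collagenase, stood at 129, 192 and 122 CPM in the control libraries against 109, 101 and 112 CPM in the CKO, without overlap (log2 fold change -0.46, edgeR adjusted p = 0.73, and -0.21 without control 2). Ctsl, a lysosomal protease gene, was lowest in control 2, at 141, 65.4 and 85.8 CPM in the control libraries and 121, 105 and 119 CPM in the CKO. Among 22 tested genes of other basement membrane proteins 0 were called and 18 were negative (median -0.27, and -0.25 without control 2). At an unadjusted p under 0.05 in edgeR 8 of the 22 passed, where 962 of all 14609 genes did, and the lowest adjusted p was 0.103. All CKO libraries lay under all controls for 7 of the 22, against a background of 6.91%. Agrn, a heparan sulphate proteoglycan gene, was at 581, 1150.3 and 1004 CPM in the control libraries against 737, 863 and 873 CPM in the CKO. Sparc, whose protein binds collagen, was at 415, 321 and 276 CPM in the control libraries against 351, 277 and 292 CPM in the CKO. In neither did the groups separate.

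Marker lists of tissues that a dissected retina could carry were summed in each library. Periocular mesenchyme markers summed to 225, 246 and 269 CPM in the control libraries and 252, 239 and 224 CPM in the CKO. Most of that sum was Tfap2b and Eya2, which retinal cells also express, while Twist2, Tcf21 and Twist1 had 7, 1 and 8 reads in total. Cartilage and sclera markers summed to 124, 148 and 168 CPM in the control libraries and 130.1, 140.3 and 126 CPM in the CKO, most of it Sox9, also a gene of retinal progenitors. Skeletal muscle markers summed to 11.3, 18.9 and 11.6 CPM in the control libraries and 11.4, 9.97 and 8.14 CPM in the CKO. Control 2 was not the highest library for the mesenchyme or cartilage sum, and was so for muscle. By gene, control 2 was highest for 6 of 6 tested muscle markers, 2 of 10 of mesenchyme and 1 of 5 of cartilage. The median ratio of control 2 to the mean of controls 1 and 3 was 2.22, 0.961 and 0.717 in that order, against 2.26 for the collagens. The muscle median log2 fold change was -0.69, and -0.25 without control 2. The part of muscle tissue in the collagen values was not tested. In none of these lists was a gene called.

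**Figure D4:**
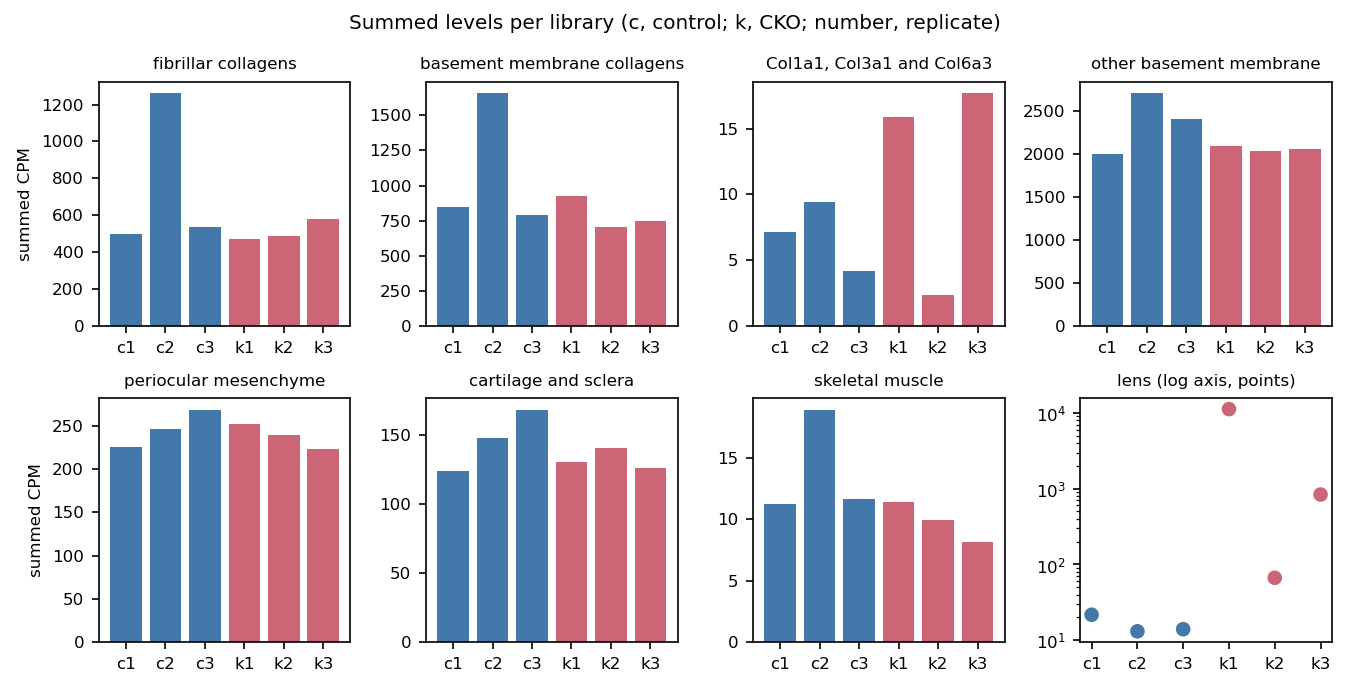
Summed CPM of 8 gene lists in each library (c, control, blue; k, CKO, red; number, replicate), as bars from 0 or, for the lens list, as points on a log axis. Fibrillar and basement membrane collagens are highest in control 2 (1262 and 1658 CPM), as are other basement membrane genes and skeletal muscle markers (2708 and 18.9 CPM). Mesenchyme and cartilage markers are highest in control 3, lens markers in CKO 1, and the sum of Col1a1, Col3a1 and Col6a3 in CKO 3.

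Vascular cells make type IV collagen, and their markers were read as well. Blood vessel markers summed to 297, 352 and 350.4 CPM in the control libraries and 279, 255 and 279 CPM in the CKO. Markers of mural cells, which wrap vessels, summed to 172, 272 and 179.9 CPM in the control libraries and 158, 139 and 152 CPM in the CKO. Both sums were highest in control 2 and lower in every CKO library than in every control. Of the tested members 0 of 13 and 0 of 12 were called. The median log2 fold changes were -0.56 and -0.22 in that order, and -0.38 and -0.12 without control 2. All CKO libraries lay under all controls for 5 of the 13 and 3 of the 12 (background 6.91%). They lay above all controls for 1 and 0 (background 5.74%). Pigment epithelium markers were highest in control 1, at 86.9 CPM against 39.1 to 51.6 CPM elsewhere. Microglia and macrophage markers lay between 54.5 and 70.2 CPM. The part of these cells in the collagen values was not tested.

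Base composition moved with the level in control 2. Over the 13827 tested genes with an annotated coding transcript, the median log2 ratio of control 2 to the mean of controls 1 and 3 was -0.50 in the lowest quintile by GC content and 0.53 in the highest quintile. Control 2 was the highest library for 7.48% of the genes in the lowest quintile and 66.2% in the highest. By transcript length the medians of the quintiles lay between -0.03 and 0.05. The tested collagens had a median GC content of 56.2%, against 50.3% for all genes, and 20 of the 37 fell in the highest quintile.

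The collagens were also read within the quintiles. In the highest quintile the 20 collagens had a median log2 ratio of 1.38 against 0.53 for all genes there, and control 2 was highest for 18 of them. In the middle quintile the 9 collagens had a median of 1.34 against 0.03, and control 2 was highest for all 9. The 5 collagens of the next quintile had 0.33 against 0.25, and the 3 of the second quintile had -0.60 against -0.21. The part of GC content in the collagen levels of control 2 was not tested further.

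**Figure D5:**
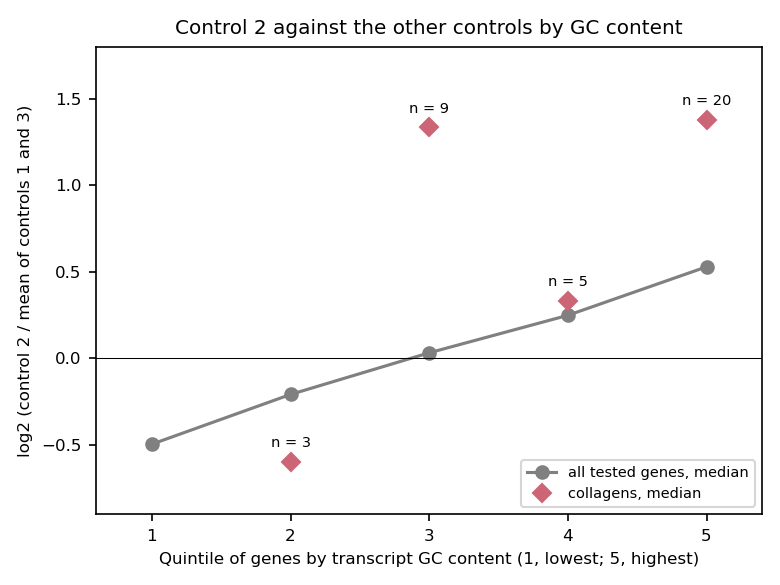
Median log2 ratio of control 2 to the mean of controls 1 and 3 by quintile of transcript GC content, for all tested genes (grey line) and for the collagens in that quintile (red diamonds, with their number). The grey line climbs from -0.50 to 0.53, and the collagens lie at 1.34 and 1.38 in the middle and highest quintiles.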

How the data were processed

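Retinal RNA was purified and poly-A selected, per the labels' protocols. What the authors deposited is 1 table of raw counts, whole numbers of reads by gene symbol, for 6 libraries. BWA 0.7.6a-r433, HTSeq 0.5.4p3, DESeq 2.13 and build mm9 are named in the submitters' processing notes, without roles. Whether counting used strand is not stated there or in the labels, so antisense reads may be counted with a gene. After the table, 4 lines that hold no gene were skipped, and 1 repeated, identical gene row was kept once.

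Groups came from the sample titles and genotype labels. In R 4.3.3 with edgeR 4.0.16, genes were filtered by filterByExpr (minimum count 10), which kept 14609 and removed 8832, and scaled by TMM. Genotypes were compared by the quasi-likelihood F test (glmQLFit, glmQLFTest) with Benjamini-Hochberg adjustment over all genes tested, with 0.05 as the threshold. A log2 fold change is the CKO less the control. No 2 libraries of a group agreed within sampling noise (chi-square per degree of freedom at least 5.98). Chain ratios were compared by an exact permutation test. Alternatives were DESeq2 1.42.0 (size factors, Wald test), limma-voom (limma 3.58.1), library sizes alone, other filters, a threshold of 0.01, a replicate block and leaving out each library.

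The collagen genes and all lists were chosen with earlier results of these data known. Named genes were Thap11, all fibrillar and basement membrane members, in other classes and lists those with the most reads or the largest change, and defining markers with 0 reads; other genes given were named after their values were seen. GC content and length came from the longest coding transcript in GENCODE vM21, a later build than mm9. The driver gene of the transgene and a marker sum that holds it are not reported here.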

Additional observations from a re-analysis of the deposited data

How the results depend on the processing

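The number of collagens called lower was 0 in edgeR and 1 (Col9a1) with DESeq2's Wald test, and 0 under every other setting, at either threshold; 0 were called higher throughout. The median log2 fold change of all tested collagens ranged from -0.85 to -0.11 when 1 library was left out, that of fibrillar collagens from -0.84 to 0.068 and that of basement membrane collagens from -0.85 to -0.049, the last value of each without control 2. The median of all tested collagens was -0.64 with DESeq2 size factors, -0.56 with library sizes alone and -0.47 with limma-voom, and in each 33 of 37 stayed negative. The fibrillar median moved more, to -0.35 with limma-voom and -0.40 with the replicate block. The basement membrane median was -0.47 and -0.46 in that order. Without control 2 the sign turned for Col4a1 (range over left-out libraries -0.67 to 0.091), Col4a2 (-0.85 to 0.00084), Col4a3 (-1.81 to 0.12), Col7a1 (-1.57 to 0.49), Col11a2 (-1.91 to 0.069), Col2a1 (-0.74 to 0.12), Col5a2 (-0.55 to 0.068), Col5a3 (-0.79 to 0.20), Ddr1 (-0.20 to 0.022) and Agrn (-0.38 to 0.070), and for Col20a1 (0.020 without control 2). Without control 1 it turned for Col8a1 (-0.40 to 0.22), Itgb1 (-0.18 to 0.0049) and Sparc (-0.24 to 0.042), and without CKO 3 for Col8a1 and Col1a1 (-0.020 to 1.16). With the replicate number as a block, 0 collagens were called, their median was -0.48 and the lowest adjusted p was 0.148 (Col4a4, edgeR); same-numbered libraries shared deviations unevenly (correlations 0.336, 0.107 and -0.008), so the numbers were not taken to pair them. Calls over all genes went from 28 higher and 103 lower to 117 and 209 with DESeq2, 72 and 147 without control 2, 24 and 73 without control 1, 6 and 27 without control 3, 8 and 33, 24 and 29 and 6 and 10 without CKO 1, 2 and 3. The cause of these changes was not tested. Members under about 10 reads in most libraries (Col6a4, Col28a1, Col12a1, Col10a1 and Col8a2) did not pass the filter with all 6 libraries. With no filter all 42 collagens were tested, and 39 were in the fit without control 2, Col12a1 and Col8a2 among them.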
